A study of Homo sapiens with 4 samples.

Results

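Mitochondrial ribosomal protein genes are described here, taken as every gene whose symbol consists of MRPL or MRPS, a number and at most a letter A, B or C. The rule found 76 genes among the 20457 gene symbols of each expression table, and it used no measured value. The RNA came from HEK293, a long-established human line of embryonic kidney origin, and 4 libraries were made from it. In 2 of them the cells had received a negative control small interfering RNA (siControl, genotype given as WT). In the other 2 they had received siRNA against CNOT4 (siCNOT4, genotype given as CNOT4 knockdown), the gene of an E3 ubiquitin ligase linked to the CCR4-NOT complex, which shortens poly(A) tails. Both siRNAs were used at 10 nM for 72 h, and the study was about CNOT4 and the way codon content shapes expression. The labels number the replicates but do not say that they were separate cultures, so p values measure the spread between these libraries, which may be technical.

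Mitochondria carry their own ribosome, the mitoribosome, which translates the few mRNAs encoded by mitochondrial DNA, all of them for membrane subunits of oxidative phosphorylation. Its rRNAs are made in the organelle, while its proteins are encoded by nuclear genes, made on cytosolic ribosomes and imported. One class of these proteins has homologues in bacterial ribosomes, and the other is found in mitochondria but not in bacteria. Symbols do not always give the place of a protein: MRPS30 and MRPS18A lie in the large subunit, and MRPS36 is a component of the 2-oxoglutarate dehydrogenase complex. With these placements the 76 genes comprised 49 of the large subunit, 26 of the small subunit and MRPS36, and 47 with bacterial homologues against 28 specific to mitochondria.

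Values are TPM, a length-normalized transcript abundance scaled by the authors to sum to 1000000 in each library, and the tables hold no read totals, so the depth is unknown. A TPM is a share of the RNA sampled, so less RNA per cell and fewer cells that make it cannot be told apart. The targeted transcript had 6.43 and 4.73 TPM in siControl and 3.38 and 3.81 TPM in siCNOT4 (log2 fold change -0.51, SE 0.26, limma adjusted p 0.184). It was lower in both siCNOT4 libraries, but the difference did not pass the threshold for TPM as deposited. It did after TMM scaling (-0.93, limma adjusted p 0.0361), quantile normalization (-1.15, 0.0252) and removal of trends with length and GC content (-0.84, 0.0141), and without siControl replicate 2 (-0.70, 0.00975). Of the HEK293 markers, KRT8, KRT18, VIM and NEFL had from 193 to 917 TPM in the 4 libraries and NEFM had at most 0.916 TPM. VIM, an intermediate filament, had 917 and 650 TPM in siControl against 369 and 354 TPM in siCNOT4. Of 6 markers of other cell types, PTPRC, CD3E, ALB, HBB and PECAM1 had at most 0.255 TPM, with HBB at 0 in every library. The fibroblast collagen COL1A1 had 1.39 and 0.906 TPM in siControl and 5.09 and 6.60 TPM in siCNOT4. Whether these markers bear on the ribosomal protein genes was not tested.

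All 76 genes were well expressed, and all 76 passed the minimum of a mean of 1 TPM used for testing. Mean TPM over the libraries ran from 29.3 for MRPL19 to 710 for MRPL51, a 24.3-fold range, with a median of 131 TPM. MRPL51, a protein specific to the mitochondrial large subunit, had 587 and 824 TPM in siControl and 708 and 722 TPM in siCNOT4. It was the most abundant of the 76 transcripts in every library, and the siCNOT4 values lay between the siControl values. MRPL12, MRPL33, MRPS15 and MRPL20 followed in mean TPM, and these 4 have bacterial homologues. At the low end, MRPL19 and MRPS25 held the last 2 places in both siControl libraries, and MRPS25 was last in both siCNOT4 libraries (27.7 and 30.1 TPM). TPM is corrected for length, so these levels can be set against each other, but only roughly. The gene lengths and the strand setting of the counting are not given in the sources used here.

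The family as a whole kept about the same share of the deposited TPM. The 76 genes summed to 10485 and 12370 TPM in siControl and to 11253 and 11464 TPM in siCNOT4, or 1.05% and 1.24% against 1.13% and 1.15% of all TPM. The siCNOT4 sums lay between the siControl sums, the ratio of the group means was 0.994, and the exact two-sided permutation p was 1.00. This holds for TPM as deposited. With TMM scaling (trimmed mean of M values, a correction of each library for a shift shared by most genes) the ratio was 0.674. The 49 large-subunit genes summed to 7087 and 8457 TPM in siControl and 7498 and 7689 TPM in siCNOT4. The 26 small-subunit genes summed to 3338 and 3845 TPM against 3653 and 3672 TPM. In both subunits the siCNOT4 sums lay between those of siControl.

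The cytosolic ribosomal proteins, which build the ribosome that translates nuclear mRNAs, behaved differently. Their 79 genes took 23.2% and 28.6% of all TPM in siControl and 18% and 17.1% in siCNOT4, so the groups did not overlap. For every 100 TPM of cytosolic ribosomal protein mRNA there were 4.53 and 4.32 TPM of mitochondrial ribosomal protein mRNA in siControl and 6.26 and 6.69 TPM in siCNOT4. The ratio of the group means was 1.46, and it ran from 1.42 to 1.51 when 1 library at a time was left out. A single scaling factor per library cannot change it, but it was not computed after quantile normalization or trend removal. The groups did not overlap in this ratio, and its exact two-sided permutation p was 0.333, the smallest that 2 libraries against 2 allow. Of the 78 cytosolic genes tested, 21 passed a limma adjusted p of 0.05, and 58 had an unadjusted p under 0.05, all lower in siCNOT4. Over all 14208 tested features, 184 were called lower and 568 were lower at an unadjusted p under 0.05. The number of cytosolic genes called lower changed with the setting, as did the number over all features. It was 0 with a minimum mean of 5 TPM, against 38 of 11395 features. It was 4 after TMM scaling, against 641 of 14208, and 53 with the replicate number as a block, against 313 of 14208. Quantile normalization gave 8 lower and 1 higher, against 1169 lower and 1010 higher of 14208. Removal of length and GC trends gave 41 lower, against 1348 of 13736. RPL13A had 3579 and 4578 TPM in siControl and 2000 and 2007 TPM in siCNOT4 (log2 fold change -1.01, SE 0.15, limma adjusted p 0.0244), and RPS2 had 3388 and 4538 TPM in siControl and 2197 and 2065 TPM in siCNOT4 (log2 fold change -0.88, SE 0.16, limma adjusted p 0.0335). These were the called cytosolic genes with the largest decreases, and genes of this kind have many processed pseudogenes, so the division of reads is uncertain.

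**Figure D1:**
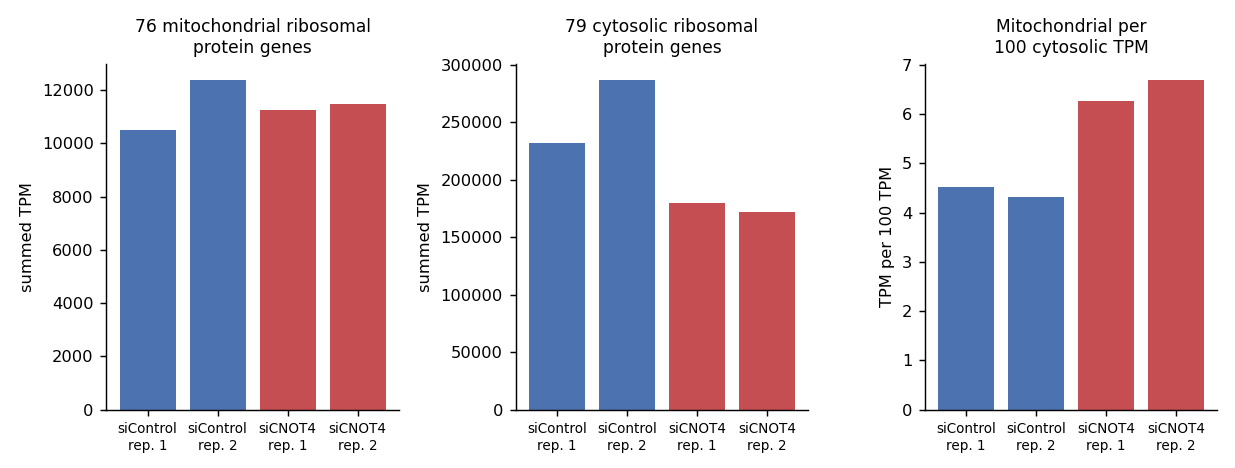
Bars show, for each of the 4 libraries, the summed TPM of the 76 mitochondrial and the 79 cytosolic ribosomal protein genes and the first per 100 TPM of the second. The mitochondrial sums of siCNOT4 (11253 and 11464) lie between those of siControl, whereas the ratio in the right panel is above 6 in both siCNOT4 libraries and below 5 in both siControl libraries.

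Gene by gene, the difference between siCNOT4 and siControl in log2(TPM + 1), called the log2 fold change here, had a median of 0.10 over the 76 genes. This scale slightly understates the change of genes with low TPM. The median was 0.50 over all 14208 tested features and -0.54 over the 78 tested cytosolic ribosomal protein genes. The mitochondrial genes thus lay between the cytosolic ones and the bulk of the transcriptome for TPM as deposited: 65 of 76 were below the median of all features, against 78 of 78 cytosolic genes. The distance of 0.64 between the mitochondrial and the cytosolic median shrank to 0.084 after quantile normalization (-0.10 against -0.18). Relative to the median of all features, their median stood at -0.40 with the deposited TPM, -0.45 with TMM scaling, -0.12 after quantile normalization and -0.26 after removal of trends with transcript length and GC content. Its absolute sign depended on the scaling, since those settings gave medians of 0.10, -0.42, -0.10 and -0.15. Leaving out siControl replicate 2 brought the relative median to -0.12, and leaving out siControl replicate 1 brought it to -0.70. Relative to all features, the siControl replicates differed in the same direction. The median difference of replicate 1 minus replicate 2 was -0.19 for the mitochondrial genes, -0.32 for the cytosolic genes and 0.38 for all features. The mitochondrial median thus lay further below that of all features between these replicates than between the groups (0.10 against 0.50).

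**Figure D2:**
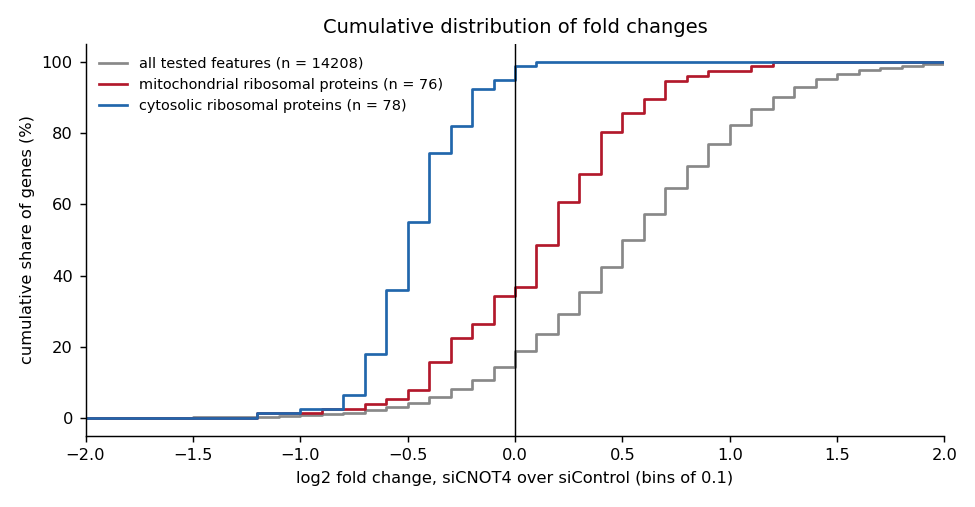
Curves give the cumulative percentage of genes (vertical axis) up to each log2 fold change between siCNOT4 and siControl (horizontal axis, bins of 0.1) for 14208 tested features, 76 mitochondrial and 78 cytosolic ribosomal protein genes. The curve of the mitochondrial genes, with a median of 0.10, runs between that of the cytosolic genes (-0.54) and that of all features (0.50).

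The genes of the family moved in both directions. At a limma adjusted p under 0.05 over all tested features, 7 of 76 differed between the groups, 3 lower and 4 higher in siCNOT4. Among all features 12.6% were called, 1.3% as lower and 11.3% as higher, so the count of higher genes was not above the general level. Of the 76, 59 had an absolute log2 fold change under 0.5, and 3 reached 1 (MRPL12, MRPL19 and MRPS31). The lower and upper quartiles were -0.23 and 0.36 for the 76 genes and 0.13 and 0.87 for all tested features, whose values lay higher. The small subunit had a median of 0.18 with 4 genes called, and the large subunit a median of 0.04 with 3 called. Genes with bacterial homologues had a median of 0.06 with 3 called of 47, and genes specific to mitochondria a median of 0.15 with 4 called of 28. The difference between these classes was not tested.

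**Figure D3:**
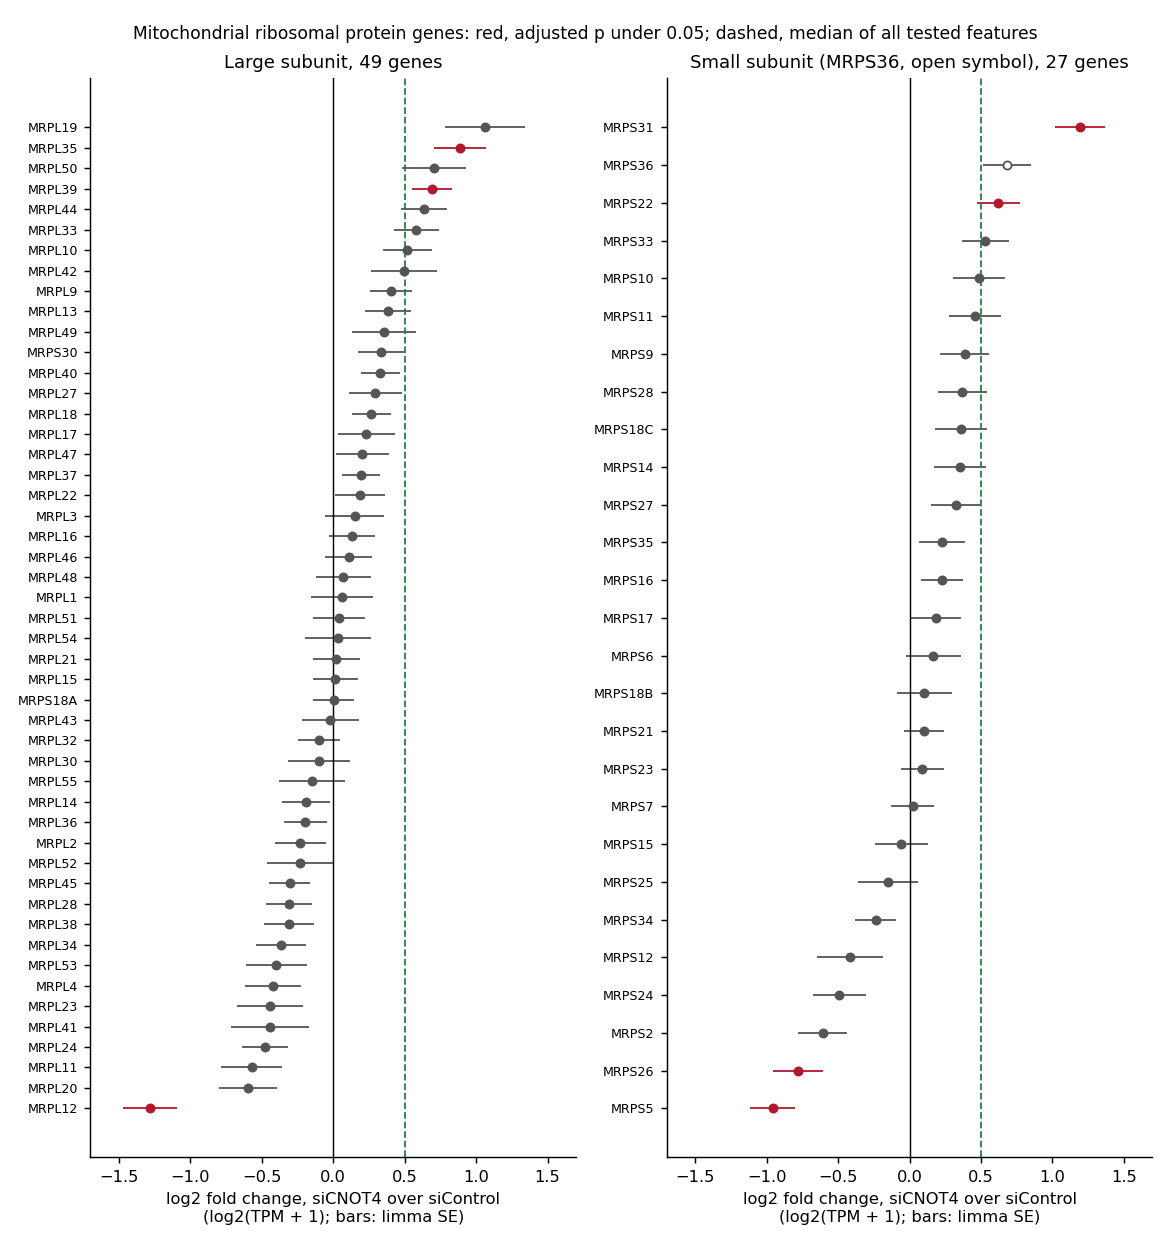
Each point is the log2 fold change of 1 gene on the log2(TPM + 1) scale with its limma standard error, sorted within the large subunit (left) and the small subunit (right). The 7 red points have an adjusted p under 0.05, and most points lie left of the dashed line at 0.50, the median of all tested features.

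MRPL12 showed the largest decrease. It encodes the mitochondrial counterpart of bacterial L12, the flexible stalk protein that recruits translation factors to the large subunit. The gene lies on chromosome 17 (81703357 to 81707526, GRCh38, GENCODE 29). MRPL12 had 469 and 662 TPM in siControl and 231 and 226 TPM in siCNOT4. Both siCNOT4 libraries were lower than both siControl libraries, by more than the siControl replicates differed from each other. The means were 566 ± 136 and 229 ± 4.14 TPM (SD, n = 2 each), and the log2 fold change was -1.28 ± 0.19 (SE), at a limma adjusted p of 0.0244. MRPL12 was the second most abundant of the 76 transcripts in both siControl libraries and took rank 12 and rank 15 in siCNOT4. It made up 4.48% and 5.35% of the family's summed TPM in siControl, and 2.06% and 1.97% in siCNOT4, a measure that a single scaling factor per library cannot change. The call held in 11 of 12 alternatives, with log2 fold changes from -1.81 to -1.04. The exception was the fit with no filter on low values (adjusted p 0.0511).

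MRPS5 and MRPS26 of the small subunit also fell. MRPS5 is the homologue of bacterial S5, which lies near the entry of the mRNA channel, and its gene is on chromosome 2 (95087207 to 95149434). MRPS5 had 144 and 154 TPM in siControl and 77.4 and 75 TPM in siCNOT4 (log2 fold change -0.96, SE 0.16, limma adjusted p 0.0270). The groups were far apart compared with either pair of replicates. In GENCODE 29 its exons share 550 bases with ZNF514 on the same strand, a gene with 25.9, 14.2, 39.8 and 40.8 TPM in siControl 1, siControl 2, siCNOT4 1 and siCNOT4 2, so the division of reads in the shared part is uncertain. MRPS26, a protein specific to mitochondria encoded on chromosome 20 (3045945 to 3048254), had 168 and 210 TPM against 105 and 113 TPM (log2 fold change -0.78, SE 0.17, limma adjusted p 0.0437). Its siCNOT4 values were both below the lower siControl value. MRPS5 was called in 9 of 12 alternatives, with limma adjusted p values up to 0.217. It was not called without siCNOT4 replicate 1, without siCNOT4 replicate 2 (log2 fold changes -0.98 and -0.94) or with libraries scaled to the family's summed TPM. MRPS26 was called in 6 of 12, with limma adjusted p values up to 0.345. Its call was lost in the same 3 settings (-0.73 and -0.83 without a siCNOT4 replicate) and also when the filter was dropped or set to a mean of 5 TPM, or the pseudocount was 0.1.

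MRPS31 rose most. This protein of the small subunit is specific to mitochondria, and its gene lies on chromosome 13 (40729135 to 40771173). MRPS31 had 46.7 and 42.5 TPM in siControl and 99.4 and 107 TPM in siCNOT4 (means 44.6 ± 2.96 and 103 ± 5.31, SD, n = 2 each). The log2 fold change was 1.19 (SE 0.17, limma adjusted p 0.0244), and the gap between groups exceeded the spread within each. Relative to the median of all features it was 0.69. It was 0.67 after TMM scaling, where it was not called. The call held in 9 of 12 alternatives and was also lost without siCNOT4 replicate 1 (1.24) and without siCNOT4 replicate 2 (1.14). A pseudogene feature, MRPS31P5, had 3.95 and 2.43 TPM in siControl and 7.19 and 7.58 TPM in siCNOT4 (limma adjusted p 0.0605), and how the authors' counting divided reads between such copies is not given in the sources used here.

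MRPL35, MRPL39 and MRPS22 were the other called increases. MRPL35, the homologue of bacterial L35 (chromosome 2, 86199355 to 86213794), had 35.3 and 33.5 TPM in siControl and 64.5 and 64.4 TPM in siCNOT4 (log2 fold change 0.89, SE 0.18, limma adjusted p 0.0411). MRPL39, specific to mitochondria (chromosome 21, 25585656 to 25607517), had 160 and 177 TPM against 272 and 273 TPM (log2 fold change 0.69, SE 0.14, limma adjusted p 0.0396). MRPS22, a small-subunit protein whose mutations cause an inherited mitochondrial disease (chromosome 3, 139005806 to 139357223), had 94.1 and 95.5 TPM against 147 and 146 TPM (log2 fold change 0.62, SE 0.15, limma adjusted p 0.0481). In these genes the siCNOT4 replicates differed little and did not overlap with siControl. Their values exceeded the median of all features by 0.39, 0.19 and 0.12, and after TMM scaling none of the 3 was called, with log2 fold changes of 0.37, 0.17 and 0.10. MRPL35 was called in 3 of 12 alternatives, MRPL39 in 4 and MRPS22 in 3. All 3 genes also lost the call when the pseudocount was 0.1, with the filter dropped or set to a mean of 5 TPM, and after removal of length and GC trends or scaling to the family's summed TPM. MRPL35 and MRPS22 lost it with quantile normalization too, and limma adjusted p values reached 0.412, 0.625 and 0.736. All 3 genes also lost the call without either siCNOT4 replicate, where 1 library is left in that group. In the same order, their log2 fold changes were 0.89, 0.69 and 0.62 without siCNOT4 replicate 1. Without siCNOT4 replicate 2 they were 0.89, 0.69 and 0.63.

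**Figure D4:**
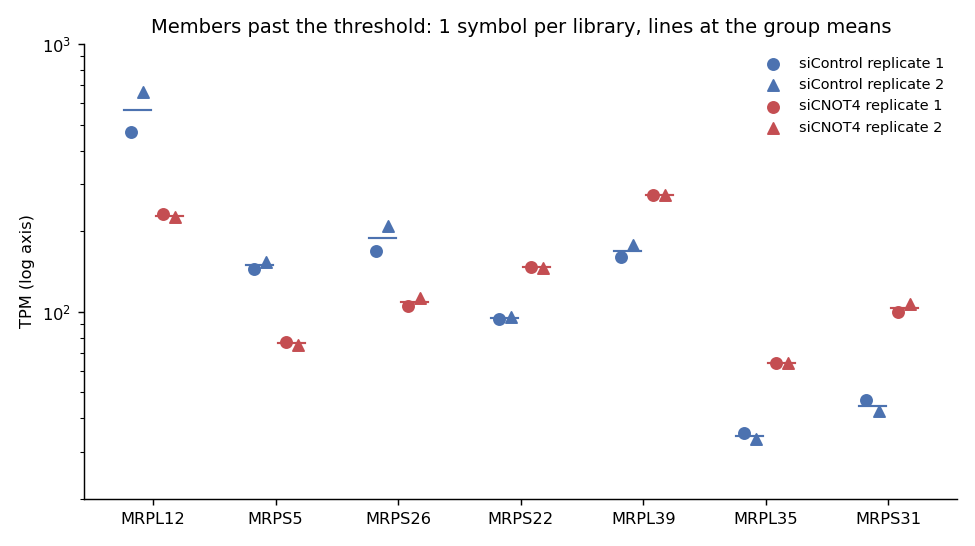
TPM of the 7 called genes on a log axis, with 1 symbol per library and lines at the means of the 2 siControl and 2 siCNOT4 libraries. MRPL12, MRPS5 and MRPS26 are lower and MRPS22, MRPL39, MRPL35 and MRPS31 higher in both siCNOT4 libraries.

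Other scalings moved the calls. After TMM scaling 5 genes of the family were called, against 9.37% of all features, and all were lower: MRPL12, MRPS5, MRPS26, MRPS2 and MRPL34. Over all features that setting called 641 lower and 690 higher. No gene of the family was called higher by limma in it, and 2 were higher at an unadjusted p under 0.05, against 23 lower. The unadjusted counts were not made over all features in that setting. Quantile normalization called 10 (7 lower, 3 higher) against 15.3% of all features (1169 lower, 1010 higher). Its higher genes were MRPS31, MRPL39 and MRPL33. After removal of length and GC trends, 14 were called (12 lower, 2 higher) against 28.2% of all features (1348 lower, 2519 higher). The higher genes were MRPS31 and MRPL19. MRPL12, MRPS5 and MRPS26 were lower and called in each of these 3 settings, but with libraries scaled to the family's own summed TPM, an alternative chosen after seeing the data, MRPL12 alone of the 3 was called.

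Among proteins at functional sites of the large subunit, MRPL11 and MRPL10 lie at the base of the stalk that carries MRPL12. MRPL11 had 78.0 and 109 TPM in siControl and 63.8 and 59.7 TPM in siCNOT4 (log2 fold change -0.57, SE 0.21, limma adjusted p 0.0998). The siCNOT4 values were the lower ones, but the test was not passed. MRPL10 had its higher values in siCNOT4, with 85.0 and 71.2 TPM against 113 and 110 TPM (log2 fold change 0.52, limma adjusted p 0.0811). It did not pass the test either, and its log2 fold change was -0.004 after TMM scaling. MRPL20, whose bacterial homologue acts early in subunit assembly, had 297 and 436 TPM against 234 and 240 TPM (log2 fold change -0.60, adjusted p 0.0838). MRPL23 lies at the exit of the peptide tunnel and had 140 and 218 TPM against 122 and 134 TPM (-0.44, adjusted p 0.187). For MRPL20 and MRPL23 the gap between the siControl replicates was larger than the gap from the lower of them to siCNOT4. MRPL45, which tethers the ribosome to the inner membrane, had 185 and 180 TPM against 150 and 146 TPM (-0.31, adjusted p 0.147).

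Other large-subunit genes were flat or higher in siCNOT4 without passing the test. MRPL3, a core protein whose mutations cause cardiomyopathy, had 194 and 134 TPM in siControl and 183 and 175 TPM in siCNOT4, which lay between them. MRPL44, which carries a ribonuclease III-like fold, had 66.9 and 70.2 TPM against 106 and 108 TPM (log2 fold change 0.63, limma adjusted p 0.0522). MRPS30 had 73.3 and 69.8 TPM against 92.9 and 88.0 TPM (0.33, adjusted p 0.166; -0.19 after TMM scaling). MRPL33, a small protein with a bacterial homologue, had 276 and 343 TPM against 445 and 477 TPM (0.58, adjusted p 0.0575). It moved from rank 6 in both siControl libraries to rank 2 in both siCNOT4 libraries. MRPL19 had 22.9 and 14.8 TPM against 42.3 and 37.0 TPM (1.06, SE 0.28, adjusted p 0.0546), and MRPL50 had 52.8 and 38.2 TPM against 69.9 and 78.2 TPM (0.71, adjusted p 0.0727). MRPL19 and MRPL50 had their highest values in siCNOT4, with siControl replicates that stood well apart.

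In the small subunit, MRPS12 is the homologue of bacterial S12 at the decoding centre. It had 113 and 174 TPM in siControl and 102 and 108 TPM in siCNOT4 (log2 fold change -0.42, limma adjusted p 0.202), and its siControl replicates differed more than the groups did. MRPS2, a homologue of bacterial S2, had 80.9 and 80.1 TPM against 50.7 and 54.3 TPM (-0.61, SE 0.17, adjusted p 0.0610), with groups far apart compared with the replicates. MRPS15 had 288 and 403 TPM against 333 and 322 TPM, so siCNOT4 lay between the siControl values. MRPS16, in which a mutation causing mitochondrial disease is known, had 136 and 126 TPM against 157 and 150 TPM (0.23, adjusted p 0.268; -0.30 after TMM scaling). MRPS36, the dehydrogenase component, had 59.7 and 67.5 TPM against 102 and 103 TPM (0.68, adjusted p 0.0503).

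Vertebrates have 3 homologues of bacterial S18, and their levels could be compared, again only roughly. MRPS18A of the large subunit had 162 and 173 TPM in siControl and 167 and 168 TPM in siCNOT4, so that the log2 fold change was 0.00 (SE 0.14). MRPS18B of the small subunit had 40.6 and 46.2 TPM against 45.8 and 47.3 TPM (0.10, SE 0.19). MRPS18C, also of the small subunit, had 60.0 and 73.4 TPM against 84.4 and 86.5 TPM (0.36, SE 0.18, limma adjusted p 0.177). MRPS18A was the most abundant and MRPS18B the least abundant of the 3 in every library. None passed the test, and after TMM scaling the 3 values were negative (-0.52, -0.41 and -0.16).

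In 55 of the 76 genes the groups did not overlap. Of these, siCNOT4 had the 2 lower values in 22 genes and the 2 higher values in 33, while 21 genes overlapped. Over all tested features 10.6% were lower and 66.4% higher without overlap. In 32 of 76 genes the siControl replicates differed from each other by more than the groups did, a count that was not made over all features. In 51 of 76, siControl replicate 2 was above replicate 1, compared with 20% of all tested features.

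The remaining mitoribosomal proteins have symbols outside the rule, and none of these 7 passed the test (0 also at an unadjusted p under 0.05, limma). DAP3, a GTP-binding small-subunit protein, had 150 and 147 TPM in siControl and 135 and 135 TPM in siCNOT4. AURKAIP1 had 165 and 250 TPM against 149 and 165 TPM, and GADD45GIP1 had 167 and 250 TPM against 148 and 149 TPM. CHCHD1 had 113 and 162 TPM against 130 and 140 TPM, between the siControl values. PTCD3, a pentatricopeptide protein, had 43.5 and 29.4 TPM against 54.2 and 53.5 TPM. ICT1, a peptidyl-tRNA hydrolase built into the large subunit, had 123 and 142 TPM against 149 and 147 TPM, and MRP63 had 22.8 and 21.3 TPM against 24.5 and 24.3 TPM. Their median log2 fold change was -0.01.

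Lists of genes that serve the mitoribosome had medians nearer to that of all features, with few or no calls. Over all tested features 12.6% were called, and 5974 of 14208 had an unadjusted p under 0.05. Of 25 assembly and rRNA modification factors, 0 were called by limma (2 higher at an unadjusted p under 0.05), with a median log2 fold change of 0.22. Of 16 translation factors and mRNA partners, 0 were called (3 higher at an unadjusted p under 0.05), with a median of 0.36. Of 12 genes of mitochondrial transcription and RNA processing, 0 were called (4 higher at an unadjusted p under 0.05), with a median of 0.44. All medians were below the 0.50 of all features, that of the 76 ribosomal protein genes by 0.40 and those of these 3 lists by 0.28, 0.14 and 0.06.

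The proximal promoters of the called genes are shown because these genes moved in opposite directions. RefSeq promoter windows (GRCh38.p14, 250 bases before to 50 after a transcription start) were held for 67 of the 76 genes, in 83 windows. Each sequence below gives the 150 bases just before the first listed start, 5′ to 3′ on the gene's strand. Capitals mark matches, on either strand, to the ETS core CCGGAAG, which factors such as GABP bind, or the SP1 core GGGCGG. The YY1 core AAGATGG, the NRF1 core GCGCANGCGC and the TATA box TATAAA were searched as well and had no match in these stretches. MRPS5 and MRPS22 had further listed starts, and their stretches shown lie wholly inside the gene spans given above. The MRPS5 stretch not shown held 2 SP1 matches. Of the MRPS22 stretches not shown, that from 139343870 held 3 ETS matches and that from 139344401 held no match. The first 3 genes fell and the last 3 rose in siCNOT4, and MRPL35 was not in the table.
MRPL12 (chr17:81703217-81703366, plus strand): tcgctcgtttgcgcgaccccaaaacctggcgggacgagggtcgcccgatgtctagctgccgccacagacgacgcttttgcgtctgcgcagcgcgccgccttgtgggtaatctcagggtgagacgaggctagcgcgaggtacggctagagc
MRPS5 (chr2:95121809-95121958, minus strand): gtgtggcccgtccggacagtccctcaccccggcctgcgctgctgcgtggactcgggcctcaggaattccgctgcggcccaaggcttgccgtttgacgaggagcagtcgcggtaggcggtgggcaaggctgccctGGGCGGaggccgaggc
MRPS26 (chr20:3045902-3046051, plus strand): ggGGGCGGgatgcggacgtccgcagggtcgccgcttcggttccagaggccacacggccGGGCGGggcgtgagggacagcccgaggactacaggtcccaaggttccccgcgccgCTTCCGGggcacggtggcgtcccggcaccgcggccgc
MRPS22 (chr3:139343844-139343993, plus strand): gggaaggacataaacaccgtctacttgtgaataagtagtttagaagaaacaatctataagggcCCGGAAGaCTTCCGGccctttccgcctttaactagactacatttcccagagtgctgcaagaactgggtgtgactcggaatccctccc
MRPL39 (chr21:25607482-25607631, minus strand): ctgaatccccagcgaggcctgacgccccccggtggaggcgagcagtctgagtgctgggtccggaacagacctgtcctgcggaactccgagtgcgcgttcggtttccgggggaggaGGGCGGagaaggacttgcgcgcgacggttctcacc
MRPS31 (chr13:40771191-40771340, minus strand): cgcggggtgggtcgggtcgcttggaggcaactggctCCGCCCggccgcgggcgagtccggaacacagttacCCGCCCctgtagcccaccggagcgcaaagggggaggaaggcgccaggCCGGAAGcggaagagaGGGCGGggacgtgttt

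ETS and SP1 cores stood before genes of either direction: MRPS26, which fell, and MRPS31, which rose, held both. The stretch before MRPL12 held none of the 5 motifs. Over whole windows, CCGGAAG occurred in 32 of 83 windows of the family (38.6%), compared with 33.3% of windows of cytosolic ribosomal protein genes and 10.3% of all 35116 windows. AAGATGG occurred in 32.5%, 11.5% and 5.84%, GCGCANGCGC in 10.8%, 8.97% and 5.78%, GGGCGG in 60.2%, 55.1% and 45.0%, and TATAAA in 3.61%, 6.41% and 11.5%. Windows of a gene with several starts can overlap. The median log2 fold change was 0.09 in the 29 genes with a CCGGAAG match and 0.10 in the 38 without, and 0.03 in 24 genes with AAGATGG against 0.13 in 43 without. It was 0.02 in 41 genes with GGGCGG against 0.13 in 26 without, -0.15 in 8 genes with GCGCANGCGC against 0.10 in 59 without, and 0.03 in 3 genes with TATAAA against 0.10 in 64 without. These differences were not tested. A match is a description of the letters and not of a bound site.

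The genes of the family differ widely in base composition, and their fold changes were ordered by it. Transcript GC content ran from 35.0% (MRPL50) to 71.9% (MRPL41), with a median of 49.6%, compared with 49.7% for the cytosolic ribosomal protein genes. Across the 76 genes the log2 fold change had a Spearman rho of -0.695 with GC content, compared with -0.373 across 12890 protein-coding tested features and -0.068 across the 78 cytosolic genes. In 4 groups of 19 genes from low to high GC content, the median log2 fold changes were 0.49, 0.17, 0.02 and -0.31. All 19 genes of the group lowest in GC (up to 43.1%) had a positive value, and 15 of the 19 highest (from 55.4%) had a negative value. TMM scaling divides each library by 1 factor, so it shifts these genes by nearly the same amount and cannot test the order. The medians after it were -0.03, -0.36, -0.50 and -0.83. Medians by GC group were not computed after quantile normalization or trend removal. Of the called genes, MRPL12 and MRPS26 had 64.6% and 63.4% GC, while MRPS31, MRPL35 and MRPL39 had 39.7%, 39.9% and 41.7%. MRPS5 (52.8%) and MRPS22 (48.5%) were intermediate.

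Replicates of 1 group differed along the same axis. The difference between the siControl replicates had a rho of -0.414 with GC content across the 76 genes, and that between the siCNOT4 replicates -0.255. Across 12890 protein-coding tested features these were -0.382 and -0.523. For the group difference across the 76 genes, leaving out siControl replicate 2 gave a rho of -0.607, and leaving out siControl replicate 1 gave -0.689. Transcript length was described in the same way, and its relation to GC content was not computed. The transcripts had a median length of 1458.5 nt, against 1010.5 nt for the cytosolic genes and 3202 nt for protein-coding tested features. The log2 fold change of the 76 genes had a rho of 0.373 with transcript length, 0.331 with the length of the 3′ untranslated region and 0.078 with coding length. Across protein-coding tested features the values were 0.402, 0.281 and 0.331 in that order. Without siControl replicate 2 the values of the 76 genes were 0.171, 0.141 and -0.019. Without siControl replicate 1 they were 0.464, 0.410 and 0.146. The difference between siControl replicates followed transcript length more closely (0.539, and 0.661 across protein-coding tested features). These correlations are descriptions across genes, which share the same 4 libraries, and the part of composition or length in any gene's change was not tested.

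**Figure D5:**
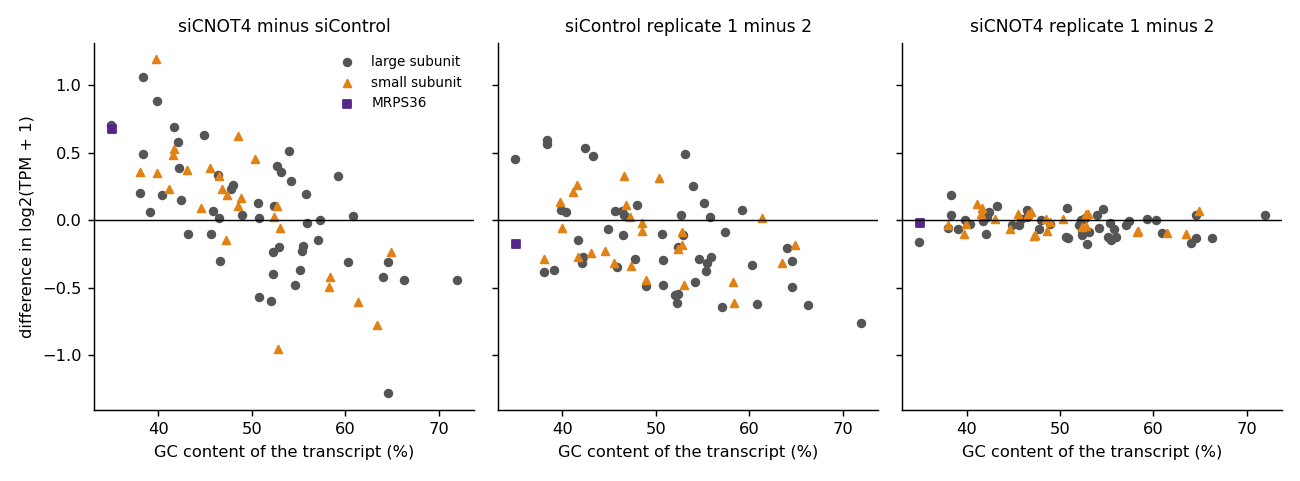
Each point is 1 of the 76 genes, with the GC content of its transcript (horizontal axis, %) and its difference in log2(TPM + 1) between the groups (left), the siControl replicates (middle) and the siCNOT4 replicates (right). The cloud falls from upper left to lower right in the left panel (rho -0.695) and is less ordered between siControl replicates (-0.414), and the siCNOT4 replicates stay close to 0.

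Exons of 27 of the 76 genes share bases with another listed feature in GENCODE 29, on the same strand in 6 and on the opposite strand in 22. The library kit keeps strand, per the labels, but the strand setting of the counting is not given in the sources used here. MRPS24, for example, shares 606 exon bases with the readthrough feature URGCP-MRPS24, and MRPS22 shares 86 bases with COPB2 on the opposite strand. COPB2 had 119 and 92.3 TPM in siControl and 203 and 195 TPM in siCNOT4, higher in siCNOT4 as MRPS22 was. Whether reads of COPB2 entered the MRPS22 values was not tested. Values of such genes are uncertain to the extent that reads in the shared part were divided.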

How the data were processed

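Each of 4 poly(A) RNA libraries of HEK293 cells had 1 deposited table of TPM, which the authors normalized for length and scaled to 1000000. The submitters' processing notes name FastQC 0.11.2, STAR 2.5.3a, featureCounts and hg19. The annotation, gene lengths and strand setting are not given in the sources used here, and the depth is unknown.

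Sample labels gave the groups. The analysis used log2(TPM + 1) of the 14208 of 20457 features whose mean reached 1 TPM, and 2 libraries were compared with 2 by limma 3.58.1 (R 4.3.3) with a trend on mean expression. P values were adjusted by Benjamini-Hochberg over all tested features, with a threshold of 0.05. Values per library were compared by exact permutation tests (SciPy 1.17.1). Its limma fit had first been tested on simulated data. TMM factors were computed on the TPM with a direct implementation of the method. Alternatives were another pseudocount, other filters, scalings, trend removal, a replicate block and leaving out each library.

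Positions, lengths and GC content came from GENCODE 29 (GRCh38), 1 transcript per gene, by symbol. All 76 genes matched, and 96.7% of tested features had a length. The files give no coordinates. Members and lists were chosen with earlier results of these data known. Named genes were those called, the 6 largest changes in each direction, the 5 most abundant and 14 fixed by role. Others named were chosen after their values were seen: the 7 subunits with other symbols, MRPS31P5, ZNF514, COPB2, URGCP-MRPS24, MRPS25, MRPS24, MRPL10, MRPL34 and MRPL41. Of each other list, the 2 largest called changes in each direction were named, which gave RPL13A and RPS2 of the cytosolic list and 0 genes of the other lists.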

Additional observations from a re-analysis of the deposited data

How the results depend on the processing

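The replicate numbers pair the libraries only by number. Differences between replicates 1 and 2 had a Pearson r of 0.171 between the groups across 14208 features. With the replicate block, 11 genes of the family were called in place of 7 (4 lower and 7 higher), including all 7. Over all 14208 features the block raised the number called from 1792 to 3655 (313 lower and 3342 higher).

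The number called was 3 with a pseudocount of 0.1 (1 higher), against 558 of 14208 over all features. It was 2 with no filter on low values (1 lower, 1 higher), against 908 of 19734 features. At a mean TPM of at least 5 it was 3 (1 higher), against 147 of 11395 features. Quantile normalization gave 10 (7 lower) against 15.3% of all features. Trend removal gave 14 (12 lower, 2 higher) against 28.2%, and TMM scaling gave 5 (5 lower, 0 higher) against 9.37%. With libraries scaled to the family's summed TPM, an alternative chosen after seeing the data, 2 were called (1 lower, 1 higher). Over all features 586 of 14208 were called in that setting. Leaving out 1 library gave 1 to 56 called, 1 to 26 lower and 0 to 30 higher. The high counts were 56 without siControl replicate 1 and 42 without siControl replicate 2, where the lone control is assumed to vary like the siCNOT4 replicates.

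After TMM scaling, quantile normalization and trend removal, in that order, the family median was -0.42, -0.10 and -0.15, the small-subunit median -0.35, -0.025 and -0.13, and the large-subunit median -0.49, -0.17 and -0.21. Leaving out 1 library gave 0.040 to 0.19 for the small subunit and -0.042 to 0.17 for the large subunit. The family median minus that of the cytosolic genes, 0.64, was 0.084 after quantile normalization and 0.56 to 0.71 when 1 library was left out. The ratio of summed TPM was 0.674 after TMM scaling and 0.918 to 1.08 when 1 library was left out.

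CNOT4 was called after TMM scaling (-0.93), quantile normalization (-1.15) and trend removal (-0.84), and its values ranged from -0.70 to -0.32 when 1 library was left out, being called without siControl replicate 2.

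None of the called genes changed sign in any of the 12 alternatives. Named genes that were not called did. After TMM scaling these were MRPL3 (-0.37), MRPL10 (-0.004), MRPL51 (-0.49), MRPS16 (-0.30), MRPS18A (-0.52), MRPS18B (-0.41), MRPS18C (-0.16) and MRPS30 (-0.19). With quantile normalization they were MRPL3 (-0.041), MRPS18A (-0.17) and MRPS18B (-0.30). Trend removal changed the sign of MRPL3 (-0.21), MRPL51 (-0.16), MRPS16 (-0.15), MRPS18A (-0.065), MRPS18B (-0.093) and MRPS18C (-0.079). Leaving out 1 library also changed signs, with ranges of -0.12 to 0.42 for MRPL3, -0.20 to 0.28 for MRPL51, -0.30 to 0.18 for MRPS15 and -0.041 to 0.048 for MRPS18A. For these results the cause was not tested.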
